A study of Mus musculus with 20 samples.

Results

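In all, 10 genes of the integrated stress response and of serine synthesis were followed in mouse intestinal crypt cells and intestinal organoids. These were WT or labelled as knockout for *Mettl3*, the gene for the enzyme that writes m6A into RNA. The 10 genes were *Atf4*, *Atf5*, *Ddit3*, *Trib3*, *Chac1*, *Asns*, *Phgdh*, *Psat1*, *Psph* and *Shmt2*, found by symbol among the 54838 gene rows of the deposited files, and all 10 were measured in all 20 libraries. In sorted crypt cells labelled knockout, *Psat1* alone of the 10 passed the test at day 4. At day 6, 7 of the 10 rose against WT Lgr5-low cells and 4 against WT Lgr5-high cells, where 6.22% and 10.1% of all genes did. *Trib3* and *Chac1* were among both, at 6.07 ± 2.57 and 11.5 ± 4.30 FPKM in knockout cells against 1.12 ± 0.384 and 1.85 ± 1.49 FPKM in WT Lgr5-low cells (SD, n = 2 each). The day 6 counts depended on settings and on single libraries. At equal FPKM sums they were 4 against WT Lgr5-low and 3 against WT Lgr5-high cells. In knockout organoids *Chac1* and *Psat1* rose and *Atf5* fell against WT organoids, 2 and 1 of 10 where 16.7% of all genes rose and 11.5% fell, and with 4 added factors *Psat1*, *Psph*, *Shmt2* and *Asns* rose above knockout organoids while *Ddit3* fell. *Atf4* mRNA itself passed the test in none of the 14 comparisons made with limma, and had an unadjusted p under 0.05 in 1, AKFP against knockout organoids.

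The integrated stress response is a shared reply to amino acid shortage, unfolded protein in the endoplasmic reticulum, haem shortage and double-stranded RNA. Each is sensed by a kinase that phosphorylates the translation factor eIF2alpha, which lowers translation in general while the *Atf4* mRNA, through short open reading frames ahead of its coding sequence, is translated more. ATF4 protein then switches on genes for amino acid synthesis and uptake, tRNA charging and feedback on the response. An mRNA level of *Atf4* therefore does not measure ATF4 protein, which was not measured here. Serine is made from a glycolytic intermediate by PHGDH, PSAT1 and PSPH, and SHMT2 passes its one-carbon unit to the folate cycle of mitochondria.

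The cells came from mice of the C57BL/6 strain. Knockout tissue carried Mettl3fl/fl with Lgr5-EGFP-IRES-CreERT2 and Villin-CreERT2, Cre drivers of crypt stem cells and of the whole intestinal epithelium, and tamoxifen (20 mg/ml) was injected on 4 days. Crypt cells were sorted into Lgr5-high and Lgr5-low gates. *Lgr5*, a stem cell receptor, was at 2.31 and 6.00 FPKM in day 4 knockout and 10.1 and 10.4 FPKM in WT Lgr5-high cells, at 0.792 and 0.906 FPKM in day 4 knockout and 0.715 and 0.974 FPKM in WT Lgr5-low cells, and at 0.340 and 1.27 FPKM in day 6 knockout cells. Tissue groups were knockout at day 3 with 1 library per gate, knockout at day 4 with 2 per gate, knockout at day 6 with 2 libraries whose labels give no gate, and WT with 2 per gate. WT tissue is labelled as untreated, although the protocol states that Mettl3fl/fl mice were also given tamoxifen. Knockout and WT tissue may thus also differ in tamoxifen, which cannot be told apart from the deletion. Organoids came from mice with the same alleles and had 2 libraries in each of 4 groups. These were AKFP (4-OHT for 2 days, with retroviral *Ascl2*, *Klf9*, *Fosb* and *Purb*), AKF (4-OHT for 2 days, with the first 3 of these factors), knockout (4-OHT for 2 days) and WT (ethanol for 2 days). By the protocol, 4-OHT induces both the deletion and the added factors. Infected organoids were selected with puromycin, and only the titles of knockout and WT organoids carry the tag "m3-flag". Knockout and WT thus also differ in 4-OHT, and AKF and AKFP may also differ from knockout by that tag, so these cannot be told apart. Separate animals or cultures are not stated for the libraries within a group, so every p-value measures only the spread between these libraries.

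Positions are from GENCODE M21 on GRCm38, the assembly also called mm10. *Atf4* (ENSMUSG00000042406; chromosome 15, 80255184 to 80257541) encodes the central factor of the response. *Atf5* (ENSMUSG00000038539; chromosome 7, 44812256 to 44816658) and *Ddit3* (ENSMUSG00000025408; chromosome 10, 127290774 to 127296288), whose protein is CHOP, encode bZIP factors of the same response. *Trib3* (ENSMUSG00000032715; chromosome 2, 152337422 to 152344032) encodes a pseudokinase that restrains ATF4 and CHOP. *Chac1* (ENSMUSG00000027313; chromosome 2, 119351229 to 119354381) encodes an enzyme that degrades glutathione. *Asns* (ENSMUSG00000029752; chromosome 6, 7675169 to 7693254) encodes asparagine synthetase. The serine enzymes are encoded by *Phgdh* (ENSMUSG00000053398; chromosome 3, 98313170 to 98339990), *Psat1* (ENSMUSG00000024640; chromosome 19, 15904678 to 15947337) and *Psph* (ENSMUSG00000029446; chromosome 5, 129765558 to 129787449). *Shmt2* (ENSMUSG00000025403; chromosome 10, 127517123 to 127522444) encodes mitochondrial serine hydroxymethyltransferase. Strand-specific counting is not stated, and some members overlap genes on the other strand. *Psph* shares 452 of its 4329 exon bases with *Cct6a*, a chaperonin gene that stood at 40.9 to 73.4 FPKM against 1.35 to 11.7 FPKM for *Psph*, so the level of *Psph* is uncertain. *Atf5* shares 82 of 1993 exon bases with *Nup62*, and *Ddit3* shares 68 of 1713 with *Mars*. A pseudogene, Phgdh-ps1, exists for *Phgdh*, and a second, short *Ddit3* locus was listed at no more than 0.0121 FPKM and was not used.

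Promoter sequence was read from RefSeq (GRCm38.p6) for all 10 members, in 12 windows of the 250 bases before a transcript start. ATF4 binds, with C/EBP partners, an element whose textbook spelling is TGATGNAA. It was found on either strand in 3.45% of the 32851 windows of all genes, and among the members in the windows of *Asns* and *Chac1*. The spelling TGACGNAA was in 1.39% of all windows and among the members in that of *Chac1*, and GTGCAATC, which holds the GCAAT half-site of C/EBP factors, was in 0.304% of all windows and in those of *Psat1* and *Trib3*. The palindrome TGACGTCA, the cyclic AMP response element, was in 1.55% of all windows and in none of the 12. Any of the 4 was in 6.54% of all windows and in 4 of the 12 windows of the members. The spellings other than TGATGNAA were chosen after these promoters had been read, so no test was made, and a match is not a shown binding site. The 4 stretches shown are those of the members with a match. The same 4 genes rose at day 6 against both WT gates. As the spellings were chosen with these promoters in view, that overlap is no independent result. Capitals mark the matches, and each stretch runs 5′ to 3′ on the strand of its gene.
Chac1, chr2:119350992-119351096, plus strand: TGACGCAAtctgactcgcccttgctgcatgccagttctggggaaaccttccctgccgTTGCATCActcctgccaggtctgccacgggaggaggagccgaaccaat
Trib3, chr2:152344061-152344131, minus strand: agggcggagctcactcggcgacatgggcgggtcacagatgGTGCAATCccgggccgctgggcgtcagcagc
Asns, chr6:7693210-7693272, minus strand: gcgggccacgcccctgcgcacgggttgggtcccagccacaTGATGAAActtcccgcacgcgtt
Psat1, chr19:15925146-15925233, minus strand: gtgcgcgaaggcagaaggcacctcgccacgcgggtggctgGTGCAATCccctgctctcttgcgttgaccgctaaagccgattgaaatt

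Values are FPKM, which divide the fragments of a gene by its length and by the depth of the library. Depth, estimated roughly from the steps of low values, was 14.9 to 25.6 per library, in units of 1e6 fragments. *Mettl3* stood at 2.75 to 4.99 FPKM in tissue libraries labelled knockout and 3.42 to 4.86 FPKM in WT tissue, and at 3.33 to 4.22 FPKM in organoids labelled knockout, with or without factors, and 3.23 to 3.56 FPKM in WT organoids. The gene-level value would also count exons left by a partial deletion, and how complete the deletion was cannot be read from it. It therefore does not check the labels, and knockout means the label throughout. The summed FPKM of all genes ran from 364538 to 763177, with the first day 6 library highest, at 763177, and the first day 4 Lgr5-high library second, at 607816. Paneth markers, 6 genes, summed to 118700 FPKM in that first day 6 library and 26610 to 69180 FPKM in the other tissue libraries, and its file header, unlike its label, names a low gate. Immune markers summed to at most 21.7 FPKM and stromal markers to at most 25.2 FPKM in any library.

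**Figure D1:**
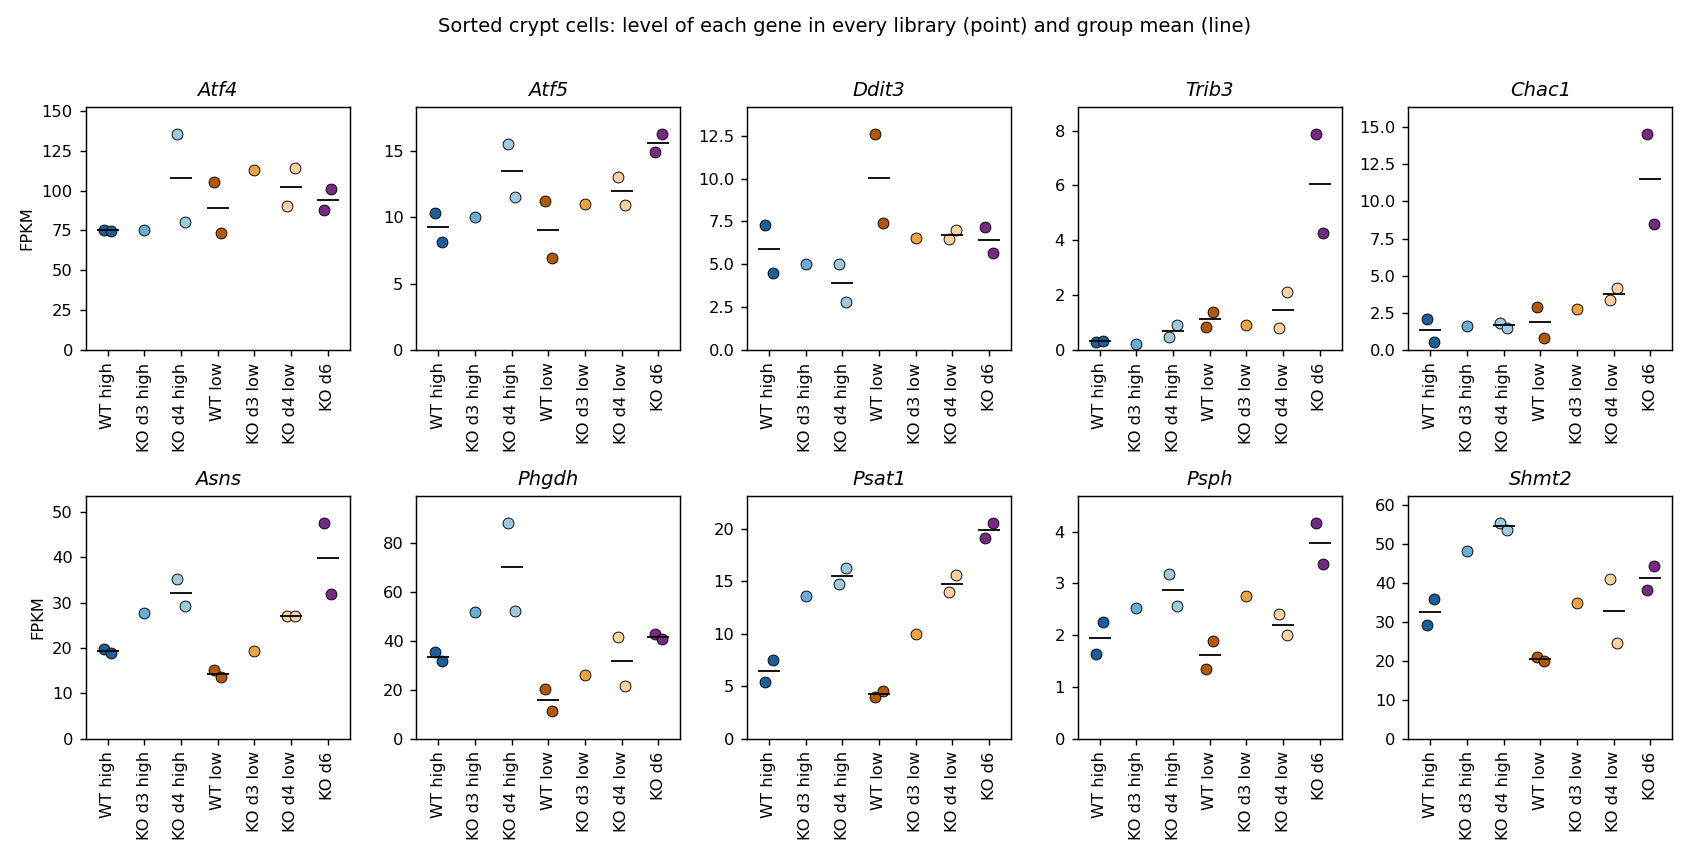
FPKM of the 10 genes (vertical axes, linear, from 0) in each of the 12 tissue libraries, by group; points are libraries, lines are means of 2 libraries, and high and low are the Lgr5 gates. Psat1 stood at 13.9 to 20.6 FPKM in every day 4 and day 6 knockout library, above the 3.98 to 7.44 FPKM of the WT libraries, whereas Trib3 and Chac1 stood apart from WT at day 6.

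At day 3, with 1 knockout library per gate and hence no test, the 5 genes of serine and asparagine synthesis and serine use all lay above both WT libraries of their gate, a position that 43.4% of all genes held in Lgr5-high and 41.1% in Lgr5-low cells. *Psat1*, which makes phosphoserine, was at 13.6 FPKM in knockout Lgr5-high cells against 5.40 and 7.44 FPKM in WT Lgr5-high cells, and at 9.92 FPKM in knockout Lgr5-low cells against 3.98 and 4.53 FPKM in WT Lgr5-low cells. Its differences from the WT mean, 0.99 and 1.06 on the log2(FPKM + 1) scale used for every difference here, were the largest of the 10 in both gates. *Phgdh* differed by 0.61 and 0.74, *Shmt2* by 0.56 and 0.74, *Asns* by 0.50 and 0.41 and *Psph* by 0.27 and 0.53, in Lgr5-high and Lgr5-low cells in that order. Over all genes, 0.774% and 0.755% were higher by 1 or more, and of the members *Psat1* in Lgr5-low cells was. Of the stress-response members, *Atf4* lay above both WT libraries in Lgr5-low cells (112.7 FPKM in knockout against 105.1 and 73.2 FPKM in WT) and within their range in Lgr5-high cells, and *Atf5* lay within it in both gates. *Trib3* was at 0.208 FPKM in knockout Lgr5-high cells against 0.286 and 0.327 FPKM in WT, and at 0.913 FPKM in knockout Lgr5-low cells against 0.846 and 1.39 FPKM in WT. *Chac1* lay within the WT range in both gates, and *Ddit3* lay within it in Lgr5-high and below it in Lgr5-low cells. Over all genes, 30.4% and 31.4% lay below both WT libraries.

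At day 4 the same 5 genes were higher than WT in both gates, with no overlap between knockout and WT libraries, and *Psat1* rose. *Psat1* was at 14.7 and 16.2 FPKM in knockout Lgr5-high cells against 5.40 and 7.44 FPKM in WT, and at 13.9 and 15.6 FPKM in knockout Lgr5-low cells against 3.98 and 4.53 FPKM in WT. Both knockout libraries exceeded both WT libraries in each gate, by 2.41-fold and 3.47-fold on the means. The log2 differences were 1.16 ± 0.20 in Lgr5-high (SE; limma adjusted p = 0.0392) and 1.58 ± 0.20 in Lgr5-low cells (limma adjusted p = 0.0269). *Psat1* was thus 1 of 10 members called higher in each gate, where 0.729% and 0.279% of the genes tested were. Members lying wholly above WT were 8 of 10 in Lgr5-high and 6 of 10 in Lgr5-low cells, where 24.9% and 29.1% of all genes tested did so. These calls for *Psat1* were close to the threshold. They were lost when only the compared groups were fitted (adjusted p = 0.235 and 0.0758) and when libraries were set to equal FPKM sums (0.386 and 0.177). Leaving out 1 library gave adjusted p between 0.0203 and 0.285 in Lgr5-high cells, where leaving out any but the second day 4 Lgr5-high library ended the call. It gave 0.0167 to 0.233 in Lgr5-low cells, where leaving out any WT library or either day 4 Lgr5-low library ended it.

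The other 4 of these genes had limma adjusted p above 0.05 at day 4. *Phgdh*, the first enzyme of serine synthesis, was at 88.3 and 52.2 FPKM in knockout Lgr5-high cells against 35.4 and 31.7 FPKM in WT, and at 41.5 and 21.7 FPKM in knockout Lgr5-low cells against 20.4 and 11.4 FPKM in WT. Its knockout libraries were all higher than WT of their gate but differed widely among themselves, with differences of 1.0 ± 0.37 (adjusted p = 0.226) and 0.93 ± 0.37 (adjusted p = 0.326). *Shmt2* was at 55.5 and 53.6 FPKM in knockout Lgr5-high cells against 29.2 and 35.8 FPKM in WT, a difference of 0.74 ± 0.25, and at 41.0 and 24.7 FPKM in knockout Lgr5-low cells against 20.9 and 20.0 FPKM in WT, a difference of 0.62 ± 0.25 (adjusted p = 0.186 and 0.322). *Asns* was at 35.2 and 29.2 FPKM in knockout Lgr5-high cells against 19.8 and 18.9 FPKM in WT. It was at 27.1 and 27.0 FPKM in knockout Lgr5-low cells against 15.1 and 13.5 FPKM in WT, with differences of 0.70 ± 0.22 and 0.88 ± 0.22 in the 2 gates (adjusted p = 0.160 and 0.139). Without adjustment, *Asns*, *Phgdh*, *Psat1* and *Shmt2* had p under 0.05 in both gates, 4 of 10 members, where 16.9% and 13.7% of all genes did. *Psph* differed by 0.40 ± 0.22 and 0.29 ± 0.22 (adjusted p = 0.396 and 0.623).

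Of the stress-response members none passed at day 4. *Atf4* was at 135.7 and 80.5 FPKM in knockout Lgr5-high cells against 75.5 and 74.8 FPKM in WT, and at 90.5 and 114.3 FPKM in knockout Lgr5-low cells against 105.1 and 73.2 FPKM in WT. Knockout and WT overlapped in Lgr5-low cells and not in Lgr5-high cells, where 1 library was far higher than the other. *Ddit3* had a lower mean in knockout cells of both gates, at 5.0 and 2.82 FPKM in knockout Lgr5-high cells against 7.31 and 4.51 FPKM in WT, and at 6.47 and 6.97 FPKM in knockout Lgr5-low cells against 12.6 and 7.40 FPKM in WT. Its log2 differences were -0.50 ± 0.33 and -0.47 ± 0.33 (adjusted p = 0.471 and 0.588), and it was the 1 member lying wholly below WT in Lgr5-low cells, where 24.3% of all genes did. *Trib3* differed by 0.36 ± 0.34 and 0.16 ± 0.34 and *Chac1* by 0.28 ± 0.44 and 0.84 ± 0.44 (adjusted p of 0.462 or more). Whether the day 4 change differed between the gates was tested directly, and it passed for no member, nor without adjustment (0.0155% of all genes were called, and 1.73% had unadjusted p under 0.05). For *Psat1* the gates differed by -0.42 ± 0.28, Lgr5-high minus Lgr5-low (limma adjusted p = 0.963).

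Other markers also moved at day 4. The 10 interferon response genes summed to 154.2 to 241.8 FPKM in the 4 day 4 knockout libraries and 32.1 to 50.9 FPKM in WT, the 7 goblet markers to 3109 to 8758 FPKM and 899.7 to 4326 FPKM, and the 14 immediate early and dissociation genes to 793.8 to 1089 FPKM and 1826 to 2414 FPKM. Of 8 enteroendocrine markers, 5 rose in Lgr5-high cells, where 0.729% of all genes did. None of the 8 was called in Lgr5-low cells (limma adjusted p of 0.165 or more), where 0.279% of all genes rose. The part of these markers in the values of the 10 genes was not tested. In such bulk libraries, more cells of a type and more RNA per cell cannot be told apart.

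**Figure D2:**
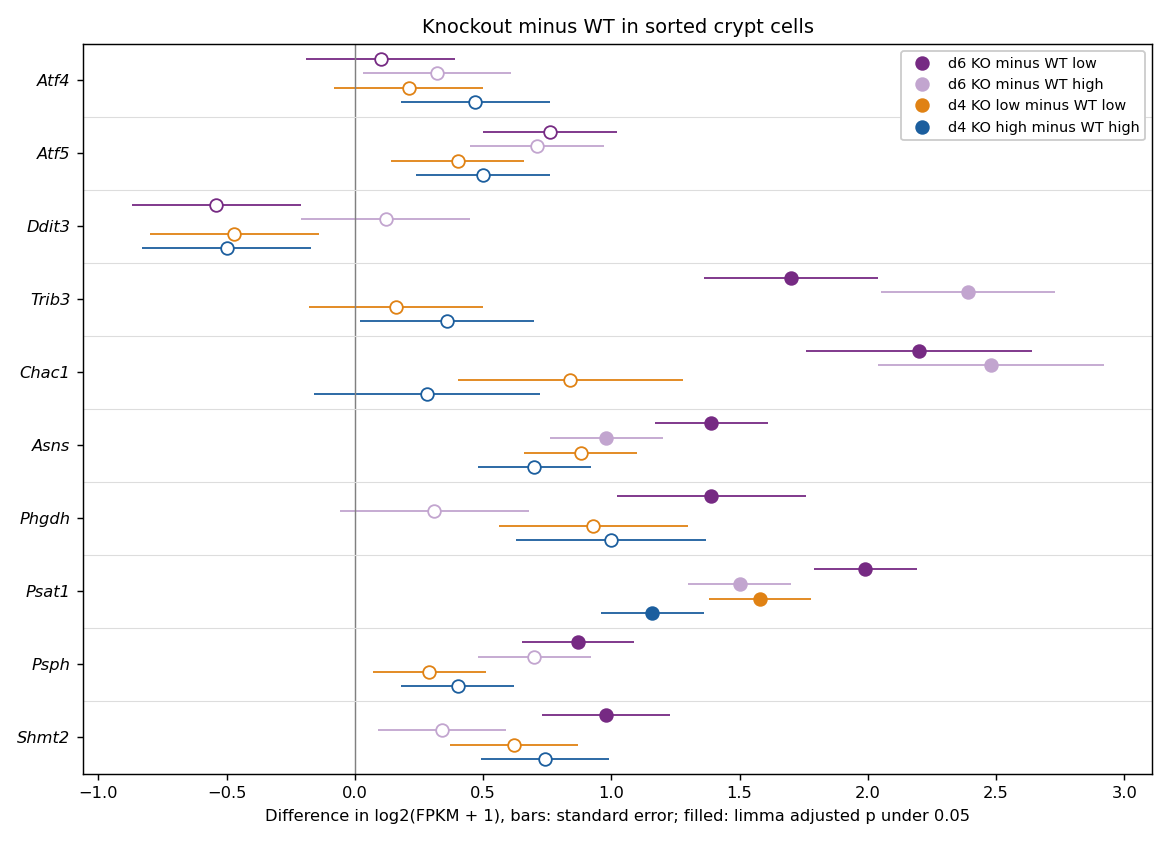
Differences in log2(FPKM + 1) between knockout and WT tissue cells for the 10 genes; points are estimates from limma, bars are standard errors, filled points have adjusted p under 0.05. Psat1 is filled in all 4 comparisons, Trib3, Chac1 and Asns in both at day 6, and Atf4, Atf5 and Ddit3 in none.

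At day 6, *Trib3*, *Chac1*, *Asns* and *Psat1* rose against both WT gates, and *Phgdh*, *Shmt2* and *Psph* against WT Lgr5-low. *Trib3* was at 7.88 and 4.25 FPKM in day 6 knockout cells against 0.846 and 1.39 FPKM in WT Lgr5-low and 0.286 and 0.327 FPKM in WT Lgr5-high cells. *Chac1* was at 14.6 and 8.49 FPKM in day 6 knockout cells against 2.91 and 0.798 FPKM in WT Lgr5-low and 2.09 and 0.543 FPKM in WT Lgr5-high cells. For both genes the 2 knockout libraries lay above every other tissue library. *Trib3* rose by 1.70 ± 0.34 against WT Lgr5-low (limma adjusted p = 0.0151) and 2.39 ± 0.34 against WT Lgr5-high (limma adjusted p = 0.0028). *Chac1* rose by 2.20 ± 0.44 and 2.48 ± 0.44 (limma adjusted p = 0.0156 and 0.00663). Both are low in WT tissue, where the least measured library held an estimated 16 fragments of *Chac1*, and *Trib3* was at 1 FPKM or more in 4 of 12 tissue libraries, so it passed the filter through few libraries, both of day 6 among them.

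*Psat1* was at 19.1 and 20.6 FPKM in day 6 knockout cells, 4.65-fold the mean of WT Lgr5-low and 3.09-fold that of WT Lgr5-high cells. It rose by 1.99 ± 0.20 and 1.5 ± 0.20 (limma adjusted p = 0.00159 and 0.00225), and this held under each alternative setting tried. *Asns* was at 47.7 and 32.0 FPKM in day 6 knockout cells and rose by 1.39 ± 0.22 against WT Lgr5-low and 0.98 ± 0.22 against WT Lgr5-high (limma adjusted p = 0.00642 and 0.0160). *Phgdh*, at 42.6 and 40.7 FPKM in day 6 knockout cells, *Shmt2*, at 38.3 and 44.2 FPKM, and *Psph*, at 4.18 and 3.38 FPKM, rose against WT Lgr5-low, by 1.39 ± 0.37, 0.98 ± 0.25 and 0.87 ± 0.22 (limma adjusted p = 0.0473, 0.0376 and 0.0375). Against WT Lgr5-high they differed by 0.31 ± 0.37, 0.34 ± 0.25 and 0.70 ± 0.22, which did not pass (adjusted p = 0.579, 0.348 and 0.0514). In all, 7 of 10 members rose against WT Lgr5-low and 4 of 10 against WT Lgr5-high, where 6.22% and 10.1% of the genes tested did. Lying wholly above WT were 8 and 9 of 10, where 26.1% and 27.5% of all genes did, and wholly below WT Lgr5-low 1, where 32.8% did. The median difference of the 10 was 1.18 and 0.70, and that of all genes tested -0.08 and -0.16.

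The number of calls depended on settings and on single libraries. Against WT Lgr5-low it was 2 with no filter on low values and 4 at equal FPKM sums. Without the first day 6 library, 2 members were called against WT Lgr5-low (*Asns* and *Psat1*) and 2 against WT Lgr5-high (*Trib3* and *Psat1*), and *Chac1* had adjusted p = 0.113 and 0.0525. Against WT Lgr5-low, 4 members were called without the second day 6 library or either WT Lgr5-high library, and 3 without the first WT Lgr5-low library. *Phgdh*, *Psph* and *Shmt2* passed in 7, 5 and 8 of 16 alternative settings. Without the second WT Lgr5-low library 1 member was called against that gate, and without the second WT Lgr5-high library 2 were called against that gate. Because the day 6 labels name no gate, a difference from 1 WT gate cannot be told apart from a difference between gates. Paneth markers summed to 47530 to 118700 FPKM in day 6 knockout cells and 34840 to 42630 FPKM in WT Lgr5-low cells, and immediate early and dissociation genes to 792.3 to 801.5 FPKM and 1826 to 2285 FPKM. Goblet markers summed to 4245 to 6206 FPKM in day 6 knockout cells. They summed to 3606 to 4326 FPKM in WT Lgr5-low and 899.7 to 1237 FPKM in WT Lgr5-high cells. In the same order of groups, interferon response genes summed to 437.8 to 574.9, 43.2 to 50.9 and 32.07 to 35.85 FPKM. The 12 p53 targets summed to 367.2 to 383.6, 175.7 to 177.7 and 153.0 to 169.8 FPKM. Stem markers summed to 138.8 to 531.9, 646.1 to 707.2 and 3407 to 3655 FPKM. Enterocyte markers summed to 3136 to 3213, 1671 to 3218 and 293.0 to 339.7 FPKM. The part of all these markers was not tested.

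*Atf4*, *Atf5* and *Ddit3* did not pass at day 6. *Atf4* was at 87.6 and 101.2 FPKM in day 6 knockout cells, between the 73.2 and 105.1 FPKM of WT Lgr5-low cells, and differed by 0.10 ± 0.29 (limma adjusted p = 0.866). Both day 6 libraries lay above the 75.5 and 74.8 FPKM of WT Lgr5-high cells, with a difference of 0.32 (limma adjusted p = 0.442). *Atf5*, at 14.9 and 16.3 FPKM in day 6 knockout cells against 11.2 and 6.92 FPKM in WT Lgr5-low and 10.4 and 8.14 FPKM in WT Lgr5-high cells, lay above all 4 WT libraries, with differences of 0.76 ± 0.26 and 0.71 ± 0.26 (adjusted p = 0.0986 and 0.0825). *Ddit3*, at 7.16 and 5.63 FPKM in day 6 knockout cells, lay below both WT Lgr5-low libraries and overlapped WT Lgr5-high, with differences of -0.54 ± 0.33 and 0.12 ± 0.33 (adjusted p = 0.325 and 0.809).

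Day 6 was also set against day 4 knockout cells. Against day 4 Lgr5-high cells, *Trib3* rose by 2.03 ± 0.34 (limma adjusted p = 0.0265; 7.88 and 4.25 FPKM at day 6 against 0.476 and 0.902 FPKM at day 4) and *Chac1* by 2.20 ± 0.44 (limma adjusted p = 0.0394; 14.6 and 8.49 FPKM against 1.82 and 1.48 FPKM). These were 2 of 10 members, where 1.98% of the genes tested rose. Leaving out the first day 6 library ended both calls (adjusted p = 0.162 for *Trib3* and 0.235 for *Chac1*), as did leaving out the first day 4 Lgr5-high library or any WT library. *Phgdh* and *Shmt2* were lower at day 6 than at day 4 in Lgr5-high cells, by -0.69 ± 0.37 and -0.40 ± 0.25, which did not pass (adjusted p = 0.293 and 0.356). Against day 4 Lgr5-low cells no member was called by limma, 4 (*Asns*, *Chac1*, *Psph* and *Trib3*) had unadjusted p under 0.05, where 8.29% of all genes did, and 0.0543% of all genes were called. *Trib3* differed there by 1.54 ± 0.34 and *Chac1* by 1.36 ± 0.44 (adjusted p = 0.168 and 0.405).

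No member passed between the gates of WT cells. *Phgdh* was at 35.4 and 31.7 FPKM in Lgr5-high against 20.4 and 11.4 FPKM in Lgr5-low cells, a difference of 1.08 ± 0.37 (limma adjusted p = 0.235). *Shmt2* differed by 0.64 ± 0.25 and *Psat1* by 0.48 ± 0.20, both higher in each Lgr5-high library than in either Lgr5-low library (adjusted p = 0.291 and 0.323). *Ddit3* and *Trib3* were lower in Lgr5-high cells, by -0.66 ± 0.33 and -0.68 ± 0.34 (adjusted p = 0.424 each). By limma 0 members were called, 3 had unadjusted p under 0.05 (*Phgdh*, *Psat1* and *Shmt2*), where 13.6% of all genes did, and 1.20% of all genes were called. Lying wholly above Lgr5-low cells were 4 members and wholly below them 2, where 40.1% and 24.3% of all genes did.

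Other genes of the pathway were read from fixed lists. At day 6, of 13 tested ATF4 targets outside the 10, 5 rose and 1 fell against WT Lgr5-low, and 5 rose and 2 fell against WT Lgr5-high. Over all genes, 6.22% rose and 5.25% fell against WT Lgr5-low, and 10.1% rose and 11.9% fell against WT Lgr5-high. *Gdf15*, a secreted stress hormone, rose by 2.41 ± 0.37 and 1.94 ± 0.37 (limma adjusted p = 0.0058 and 0.00854). *Eif4ebp1*, an inhibitor of cap-dependent translation, rose by 1.74 ± 0.28 and 1.59 ± 0.28, and *Sesn2*, a leucine sensor that restrains mTORC1, by 1.3 ± 0.21 and 0.89 ± 0.21. *Ero1l*, an ER oxidase, also rose against both gates, by 1.06 ± 0.28 and 1.32 ± 0.28. *Cth*, which makes cysteine from cystathionine, fell against both, by 1.68 ± 0.30 and 1.22 ± 0.30 (limma adjusted p = 0.0106 and 0.0229), and *Ddit4*, an mTORC1 inhibitor, fell against WT Lgr5-high by 1.34 ± 0.41.

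Of 8 tested amino acid transporters 3 rose against WT Lgr5-low and 4 against WT Lgr5-high, where 6.22% and 10.1% of all genes did, and none fell. Both counts include *Slc7a11*, whose test was not independent of its level at day 6. *Slc7a5*, a subunit of the leucine transporter, rose by 1.91 ± 0.25 and 1.07 ± 0.25, *Slc1a4*, a carrier of serine and alanine, by 1.77 ± 0.24 and 1.44 ± 0.24, and *Slc7a11*, the cystine carrier, by 1.43 ± 0.20 and 1.45 ± 0.20. *Slc7a11* averaged 1.93 FPKM at day 6 against 0.0752 FPKM in WT Lgr5-low and 0.0584 FPKM in WT Lgr5-high cells, and it passed the filter only through the day 6 libraries, where it is high, so it could be tested only because it differed. The glycine carrier *Slc6a9* rose against WT Lgr5-high, by 1.11 ± 0.24. Of the 13 tested tRNA charging genes under ATF4, 1 rose in each comparison, the cysteine enzyme gene *Cars* (0.75 ± 0.19 and 0.88 ± 0.19), and the median of the 13 was 0.37 and 0.38. Of 8 other cytosolic tRNA synthetase genes, *Hars* rose in both (0.68 ± 0.17 and 0.58 ± 0.17), and *Kars*, *Qars* and *Farsb* fell against WT Lgr5-high. Of 15 tested genes of one-carbon metabolism and serine use, the mitochondrial enzymes *Mthfd2* (1.04 ± 0.16 and 0.79 ± 0.16) and *Aldh1l2* (0.74 ± 0.19 and 0.81 ± 0.19) rose against both gates, and *Sptlc2*, of sphingolipid synthesis, rose against WT Lgr5-high by 0.77 ± 0.24. *Aldh1l2*, at means of 1.34 FPKM at day 6 against 0.401 FPKM in WT Lgr5-low and 0.334 FPKM in WT Lgr5-high cells, likewise passed the filter only through the day 6 libraries. Its rise, like that of *Slc7a11*, is therefore no independent support. Against WT Lgr5-high the cytosolic enzymes *Shmt1* (-1.75 ± 0.27) and *Mthfd1* (-1.18 ± 0.29) fell, with *Amt* of the glycine cleavage system (-1.0 ± 0.22).

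None of the 7 genes for eIF2alpha kinases, phosphatase subunits and eIF2alpha itself was called at day 6. Of 7 bZIP partners and feedback factors, *Atf3*, also an immediate early gene, fell against both gates (-1.77 ± 0.43 and -1.88 ± 0.43), and *Nupr1* rose against WT Lgr5-high (1.84 ± 0.51). Of 14 ER chaperone and unfolded protein response genes, 4 rose against WT Lgr5-high, led by *Manf* (1.01 ± 0.21), *Creld2* (0.72 ± 0.20) and *Sdf2l1* (0.69 ± 0.18), and none against WT Lgr5-low. None of 8 mitochondrial chaperone and protease genes was called. At day 4, *Mthfd2* (0.92 ± 0.16), *Sdf2l1* (1.19 ± 0.18) and *Manf* (1.10 ± 0.21) rose in Lgr5-high cells (limma adjusted p = 0.0422, 0.0294 and 0.0497), and no gene of these lists was called in Lgr5-low cells. Over all genes at day 6, 6.22% rose and 5.25% fell against WT Lgr5-low, and 10.1% rose and 11.9% fell against WT Lgr5-high.

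Levels of some of the 10 genes did not overlap between organoids and tissue. A share over all genes was not computed. *Trib3* was at 23.8 to 32.9 FPKM in organoids, WT included, and at 0.208 to 7.88 FPKM in tissue. *Atf5* (44.1 to 65.4 FPKM in organoids and 6.92 to 16.3 FPKM in tissue), *Asns* (66.6 to 88.4 and 13.5 to 47.7 FPKM), *Psat1* (37.0 to 68.8 and 3.98 to 20.6 FPKM), *Psph* (5.99 to 11.7 and 1.35 to 4.18 FPKM) and *Shmt2* (58.3 to 107.8 and 20.0 to 55.5 FPKM) were likewise higher in every organoid library. *Chac1* (14.1 to 31.9 and 0.543 to 14.6 FPKM), *Atf4* (115.2 to 151.0 and 73.2 to 135.7 FPKM), *Ddit3* (7.33 to 18.7 and 2.82 to 12.6 FPKM) and *Phgdh* (72.2 to 95.9 and 11.4 to 88.3 FPKM) overlapped. The sets differ in source and were deposited separately, so no test was made between them. The summed FPKM of all genes was 364538.4 to 411442.2 in organoids and 456653.5 to 763177.5 in tissue. Paneth markers summed to 5064 to 10560 FPKM in organoids and 26610 to 118700 FPKM in tissue.

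**Figure D3:**
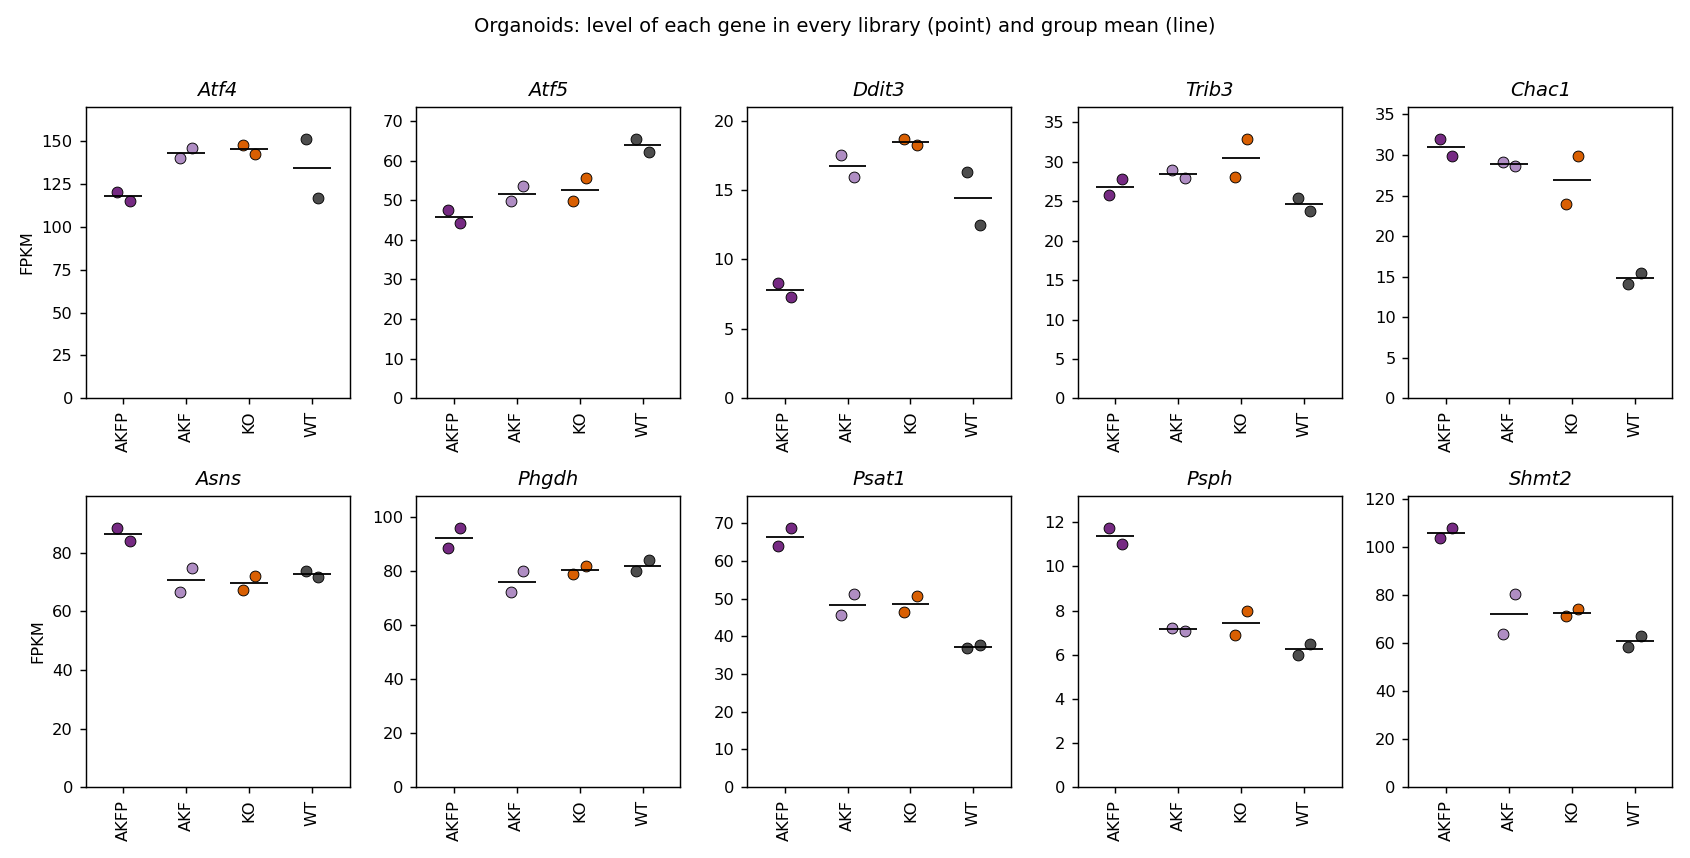
FPKM of the 10 genes (vertical axes, linear, from 0) in each of the 8 organoid libraries, by group; points are libraries and lines are means of 2. Ddit3 stood at 7.33 to 8.29 FPKM in AKFP organoids, below the 12.5 to 18.7 FPKM of the other groups, and Psat1, Psph and Shmt2 were highest with AKFP.

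Knockout organoids differed from WT organoids in 3 members. *Chac1* was at 24.0 and 29.9 FPKM in knockout against 14.1 and 15.5 FPKM in WT organoids, and rose by 0.82 ± 0.11 (limma adjusted p = 0.00273), a call kept under each alternative setting tried. *Psat1* was at 46.6 and 50.8 FPKM in knockout against 37.0 and 37.7 FPKM in WT organoids, and rose by 0.37 ± 0.08 (limma adjusted p = 0.0174). *Atf5* was at 49.7 and 55.5 FPKM in knockout against 65.4 and 62.2 FPKM in WT organoids, and fell by 0.28 ± 0.08 on the log2 scale (limma adjusted p = 0.0460). The libraries of the 2 groups did not overlap for any of the 3. Against these 2 rises and 1 fall, 16.7% of the genes tested rose and 11.5% fell. Wholly above WT organoids were 6 members and wholly below 1, where 36.6% and 31.3% of all genes were. *Trib3* (28.0 and 32.9 FPKM in knockout against 25.4 and 23.8 FPKM in WT organoids; 0.29 ± 0.09) and *Ddit3* (18.7 and 18.2 FPKM against 16.3 and 12.5 FPKM; 0.35 ± 0.13) did not pass (adjusted p = 0.0527 and 0.0827). *Asns* and *Phgdh* differed by -0.06 ± 0.08 and -0.03 ± 0.08 (adjusted p = 0.594 and 0.806). The call for *Atf5* was lost without either WT or either knockout library (adjusted p of 0.0649 to 0.222), without either AKFP library (0.0604 and 0.0605) with a block for replicate number (0.0571), with no filter on low values (0.0831) and with only these groups fitted (0.0592). That for *Psat1* was lost without either WT library or the second knockout library (0.0679 to 0.101) and at equal FPKM sums (0.101). Interferon response genes summed to 272.7 to 396.6 FPKM in knockout and 41.7 to 42.1 FPKM in WT organoids. In the same order, goblet markers summed to 2019 to 2081 FPKM and 887.1 to 1153 FPKM. Immediate early and dissociation genes summed to 1419 to 1594 FPKM and 1201 to 1242 FPKM. Enteroendocrine markers summed to 898.7 to 928.5 FPKM and 344.0 to 424.2 FPKM. Stem markers were lower in knockout, at 439.4 to 461.9 FPKM against 747.2 to 853.9 FPKM. Enterocyte markers were lower too, at 1452 to 1479 FPKM against 2575 to 2751 FPKM. The part of all these markers in the values of the members was not tested.

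No member was called by limma between AKF and knockout organoids, and 0 had an unadjusted p under 0.05, where 4.60% of all genes did and 0.0474% were called. The differences of the 10 ran from -0.14 ± 0.13 for *Ddit3* to 0.10 ± 0.11 for *Chac1*. *Psat1*, at 45.6 and 51.2 FPKM in AKF against 46.6 and 50.8 FPKM in knockout organoids, differed by -0.01 ± 0.08. Against WT organoids, AKF organoids had the same 3 members called, *Chac1* (0.92 ± 0.11), *Psat1* (0.36 ± 0.08) and *Atf5* (-0.30 ± 0.08; limma adjusted p = 0.00157, 0.0175 and 0.0324), where 17.6% of all genes rose and 12.7% fell. Both comparisons with WT use the same WT libraries. In AKF organoids the call of *Atf5* was lost in 6 and that of *Psat1* in 4 of 14 alternative settings, each without either WT library or the second AKF library (adjusted p of 0.0519 to 0.138), and that of *Atf5* also without the first AKF library (0.120).

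AKFP organoids, which carry *Purb* in addition, differed from knockout organoids in 5 members, 4 higher and 1 lower, where 13.2% of the genes tested rose and 13.2% fell. Wholly above knockout organoids were 6 members and wholly below 4, where 40.2% and 31.6% of all genes were. *Ddit3* was at 8.29 and 7.33 FPKM in AKFP against 18.7 and 18.2 FPKM in knockout organoids, and fell by 1.14 ± 0.13 on the log2 scale (limma adjusted p = 0.00219). *Psph* was at 11.7 and 11.0 FPKM against 6.89 and 7.98 FPKM, and rose by 0.56 ± 0.09 (limma adjusted p = 0.00738). *Shmt2* was at 103.8 and 107.8 FPKM in AKFP against 71.1 and 74.1 FPKM in knockout organoids, and rose by 0.54 ± 0.11 (limma adjusted p = 0.0170). The libraries of the groups did not overlap, and the 3 genes stood at the ends of their organoid ranges in AKFP. *Psat1*, at 64.1 and 68.8 FPKM in AKFP against 46.6 and 50.8 FPKM in knockout organoids, rose by 0.44 ± 0.08 (limma adjusted p = 0.0126), and *Asns*, at 88.4 and 84.0 FPKM against 67.3 and 72.0 FPKM, by 0.30 ± 0.08 (limma adjusted p = 0.0319). *Phgdh* differed by 0.20 ± 0.08, *Chac1* by 0.20 ± 0.11, *Trib3* by -0.18 ± 0.09, *Atf5* by -0.19 ± 0.08 and *Atf4* by -0.30 ± 0.12 (adjusted p of 0.0977 to 0.204). The calls of *Ddit3* and *Psph* held under each alternative setting tried. That of *Shmt2* was lost without any knockout or AKFP library (adjusted p of 0.0574 to 0.0938), that of *Psat1* without the first knockout or second AKFP library (0.0820 and 0.0754), and that of *Asns* without any WT, knockout or AKFP library (0.0502 to 0.169) or filter on low values (0.0595).

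**Figure D4:**
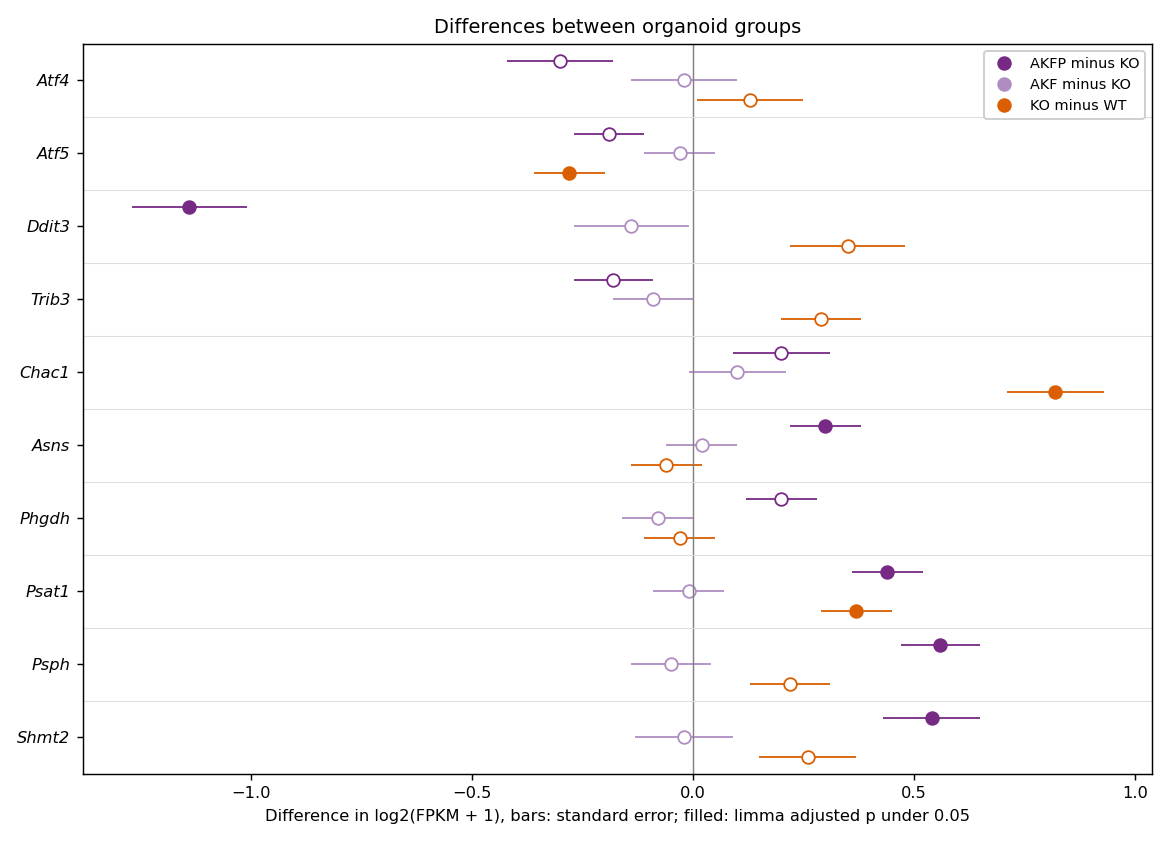
Differences in log2(FPKM + 1) for the 10 genes between AKFP and knockout, AKF and knockout, and knockout and WT organoids; points are estimates from limma, bars are standard errors, filled points have adjusted p under 0.05. AKF minus knockout has no filled point, and AKFP minus knockout has Ddit3 at -1.14 and Asns, Psat1, Psph and Shmt2 between 0.30 and 0.56.

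Set against AKF organoids, which by their labels lack *Purb*, 5 members rose with AKFP and *Ddit3* fell, where 12.8% of the genes tested rose and 12.7% fell. The rises were *Psph* (0.60 ± 0.09), *Shmt2* (0.56 ± 0.11), *Psat1* (0.45 ± 0.08), *Asns* (0.29 ± 0.08) and *Phgdh* (0.27 ± 0.08), with limma adjusted p of 0.00571 to 0.0441, and *Ddit3* fell by 1.01 ± 0.13 (limma adjusted p = 0.00348). With only these 2 groups fitted 3 members were called. Without the second AKFP library 2 were called, and without the first AKFP or first AKF library 3. AKFP and AKF organoids also differed in more than *Purb*. *Ascl2*, an added factor of both, averaged 19.1 FPKM in AKFP and 37.7 FPKM in AKF organoids. The Paneth marker *Pla2g2a* averaged 601.1 FPKM in AKFP and 15.6 FPKM in AKF organoids. The part of *Purb* in the changes of the members was not tested. Against WT organoids AKFP organoids had *Chac1* (1.02 ± 0.11), *Psat1* (0.81 ± 0.08), *Shmt2* (0.79 ± 0.11), *Psph* (0.77 ± 0.09) and *Asns* (0.24 ± 0.08) higher and *Ddit3* (-0.80 ± 0.13) and *Atf5* (-0.47 ± 0.08) lower, with limma adjusted p of 0.000566 to 0.0439. These were 5 and 2 of 10, where 24.6% of all genes rose and 18.8% fell. The call of *Asns* there was lost in 9 of 14 alternative settings, and the other 6 held in all 14.

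The lists around the members are set beside the 16.7% of all genes that rose and the 11.5% that fell in knockout against WT organoids. There, 3 of 7 eIF2alpha kinase and phosphatase genes rose, namely *Ppp1r15a*, whose product GADD34 lets eIF2alpha be dephosphorylated (1.08 ± 0.06), *Eif2ak2*, the double-stranded RNA sensor PKR (0.75 ± 0.14), and *Eif2ak3*, the ER sensor PERK (0.62 ± 0.09; limma adjusted p = 0.000373, 0.00846 and 0.00462). Of 15 tested ATF4 targets 4 rose, led by *Pck2* (1.08 ± 0.07), *Eif4ebp1* (0.71 ± 0.09) and *Adm2* (0.68 ± 0.16), and *Sesn2* (-0.35 ± 0.08) and *Cbs* (-0.54 ± 0.10) fell. Of 8 transporters 4 rose, led by *Slc1a5*, the glutamine carrier (0.68 ± 0.10), *Slc6a9* (0.56 ± 0.07) and *Slc7a11* (0.54 ± 0.12). Of 14 ER genes 4 rose, led by the chaperone gene *Hspa5* (0.81 ± 0.07) and *Pdia4* (0.57 ± 0.08), and of 7 bZIP genes 4 rose, led by *Cebpd* (0.98 ± 0.09), *Fosl1* (0.68 ± 0.10) and *Atf3* (0.62 ± 0.08). None of 13 tRNA charging genes under ATF4 was called. Of 15 one-carbon genes *Mthfd2* (0.40 ± 0.07) and *Sptlc1* (0.30 ± 0.07) rose, and *Shmt1* (-0.44 ± 0.09) and *Mthfd1* (-0.35 ± 0.06) fell.

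With AKFP against knockout organoids, where 13.2% of all genes rose and 13.2% fell, members of these lists were called in both directions. *Ppp1r15a* fell by 1.43 ± 0.06 on the log2 scale (limma adjusted p = 5.94e-05), *Eif2ak2* fell by 0.46 ± 0.14, and *Eif2ak3* (0.39 ± 0.09), *Ppp1r15b* (0.38 ± 0.08) and *Eif2s1* (0.27 ± 0.06) rose. Of 7 bZIP genes 4 fell, led by *Atf3* (-0.92 ± 0.08), *Fosl1* (-0.71 ± 0.10) and *Jund* (-0.47 ± 0.07), and *Cebpg* rose (0.25 ± 0.07). Among ATF4 targets *Gdf15* (-0.90 ± 0.08) and *Adm2* (-0.92 ± 0.16) fell and none rose. *Slc7a5* (0.63 ± 0.13) and *Slc7a11* (0.54 ± 0.12) rose among transporters, *Aars*, *Iars* and *Nars* (0.26 ± 0.07 to 0.43 ± 0.12) among tRNA charging genes, and *Tyms* (0.48 ± 0.12), *Gcsh* (0.47 ± 0.07) and *Mthfd1* (0.31 ± 0.06) led 5 rises among one-carbon genes, while *Aldh1l1*, the cytosolic formyltetrahydrofolate dehydrogenase, fell by 2.36 ± 0.10 (limma adjusted p = 4.53e-05) and *Amt* by 0.39 ± 0.11. Of 14 ER genes *Pdia4* (0.45 ± 0.08), *Calr* (0.38 ± 0.07) and *Dnajc3* (0.37 ± 0.09) rose and *Dnajb9* (-0.24 ± 0.07) fell. No gene of these lists was called between AKF and knockout organoids. Of 12 cell cycle genes 7 rose with AKFP, and of 8 enteroendocrine markers 7 fell and *Gcg* rose, beside the same shares of all genes. Immediate early and dissociation genes summed to 971.3 to 986.9 FPKM in AKFP organoids and 1419 to 1594 FPKM in knockout organoids. In the same order, interferon response genes summed to 67.1 to 77.3 FPKM and 272.7 to 396.6 FPKM. Stem markers summed higher with AKFP, at 826.7 to 833.9 FPKM against 439.4 to 461.9 FPKM. Much of that sum was *Olfm4*, at means of 506.5 FPKM in AKFP and 221.5 FPKM in knockout organoids. Of the stem markers, *Olfm4*, *Slc12a2* and *Ascl2*, itself an added factor, were called higher. *Lgr5*, *Smoc2*, *Rgmb*, *Axin2* and *Cdca7* were not called. Enterocyte markers were lower, at 765.8 to 766.0 FPKM against 1452 to 1479 FPKM. The part of all these markers in the values of *Ddit3* and the serine genes was not tested.

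**Figure D5:**
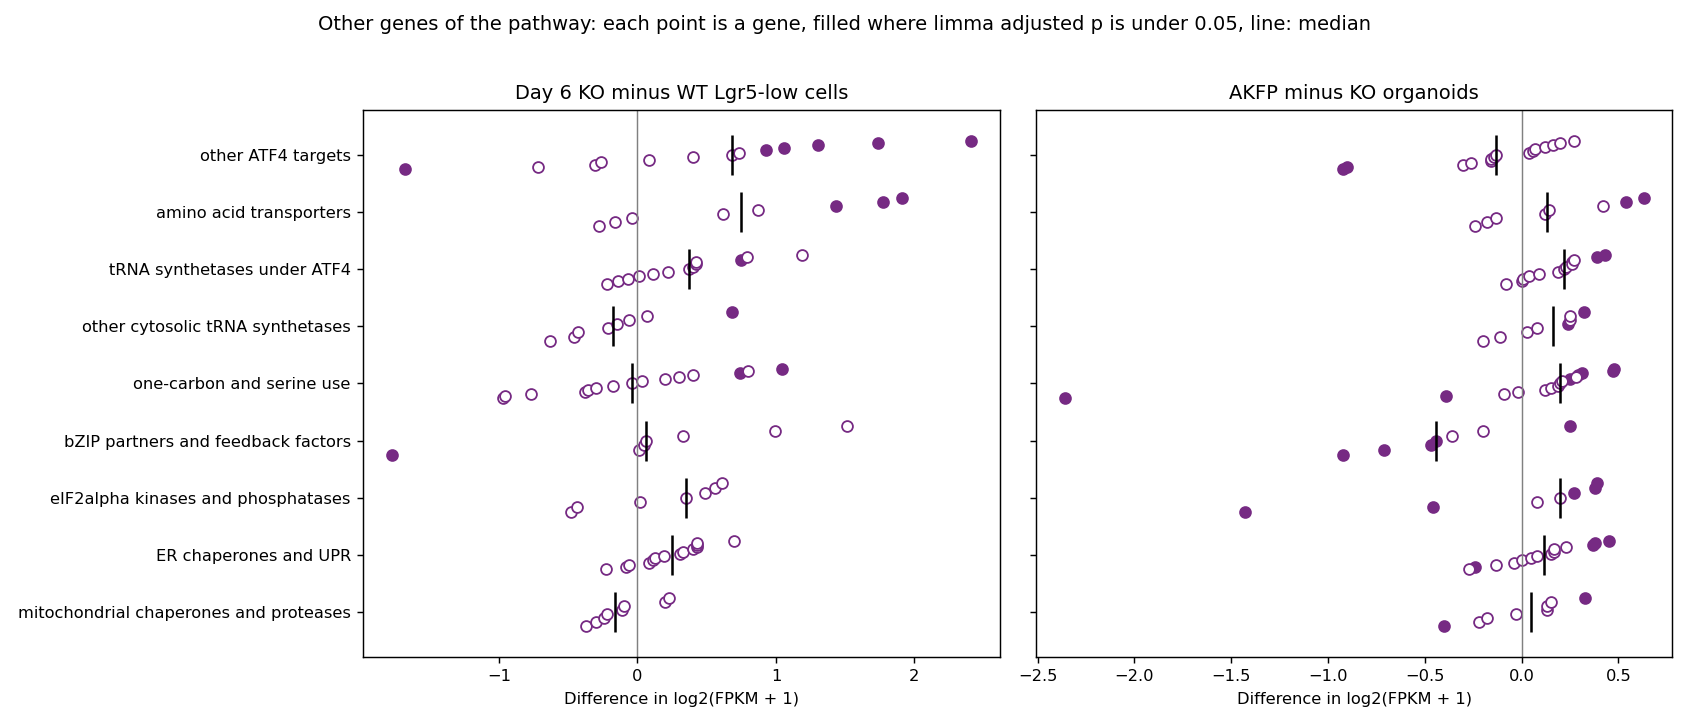
Differences in log2(FPKM + 1) for the genes of 9 lists around the members, day 6 knockout minus WT Lgr5-low cells (left) and AKFP minus knockout organoids (right); each point is a gene, filled where limma adjusted p is under 0.05, and vertical lines are medians. Other ATF4 targets had a median of 0.68 on the left and -0.13 on the right.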

How the data were processed

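Libraries were made from total RNA of sorted cells (NEBNext Ultra), per the labels' protocols. The tissue files hold FPKM per gene, per the file headers. The organoid table deposited by the authors names no unit, and its values were taken as FPKM because they share the gene rows, format and range of the tissue files. HISAT2 2.1.0, StringTie 1.3.3b and mm10 are named in the submitters' processing notes, with no roles. Symbols came from GENCODE M21 (54723 of 54838 rows). Differences are on log2(FPKM + 1), which understates changes of low genes. Genes at 1 FPKM or more in at least 2 libraries were tested, 12899 in tissue and 12657 in organoids, all 10 members among them. limma 3.58.1 in R 4.3.3 (1 mean per group, trend) was fitted to 10 tissue libraries (day 3 outside) and 8 organoid libraries, with two-sided tests, Benjamini-Hochberg adjustment over all genes tested and calls under 0.05. The fit was tested on simulated data. All 10 members were named, with up to 3 called genes per direction of each list. Alternatives were a pseudocount of 0.1, no filter, only the compared groups, equal FPKM sums, median-of-ratios scaling, a replicate block, and each library left out. The members, lists and tests were chosen with earlier results of these data known.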

Additional observations from a re-analysis of the deposited data

Results flagged for a closer look

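*Atf5* had differences of opposite sign in tissue and organoids. Both day 4 knockout Lgr5-high libraries, at 15.6 and 11.5 FPKM, lay above both WT Lgr5-high libraries, at 10.4 and 8.14 FPKM, with a difference of 0.50 ± 0.26 that did not pass (limma adjusted p = 0.369), while both knockout organoid libraries lay below both WT organoid libraries, with a difference of -0.28 ± 0.08. For *Ddit3* the signs were the other way round, and neither difference passed. Both day 4 knockout Lgr5-low libraries, at 6.47 and 6.97 FPKM, lay below both WT Lgr5-low libraries, at 12.6 and 7.40 FPKM, with a difference of -0.47 ± 0.33 (limma adjusted p = 0.588), while both knockout organoid libraries lay above both WT organoid libraries, with a difference of 0.35 ± 0.13 (limma adjusted p = 0.0827). The difference between the sets was not tested for either gene.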

How the results depend on the processing

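Of 576 values of called members under alternatives, 424 kept direction and call, 152 kept direction and lost the call, and none reversed. Counts of called members moved by over 1.5 times as follows. With no filter on low values, day 4 against WT Lgr5-high gave 0 (1 in the main analysis), day 6 against WT Lgr5-low 2 (7) and day 6 against day 4 Lgr5-high 0 (2). With only the compared groups, day 4 gave 0 in both gates, day 6 against day 4 Lgr5-high 0, and AKFP against AKF 3 (6). At equal FPKM sums, day 4 gave 0 in both gates, day 6 against WT Lgr5-low 4 and day 6 against day 4 Lgr5-high 0. A pseudocount of 0.1 left 1 call at day 6 against day 4 Lgr5-high. At day 3, 1 member differed by 1 or more, against 2 with a pseudocount of 0.1, 2 at equal sums and 0 with median-of-ratios scaling. With 1 library left out, where a lone library is assumed to vary like the others, the count ran from 0 to 1 at day 4 in both gates, 2 to 5 at day 6 against WT Lgr5-high, 1 to 7 against WT Lgr5-low, 0 to 2 against day 4 Lgr5-high, 1 to 4 in knockout against WT organoids, 2 to 5 and 2 to 6 in AKFP against knockout and AKF, 1 to 3 and 6 to 7 in AKF and AKFP against WT. It was 0 throughout for day 6 against day 4 Lgr5-low, the WT gates, the gate difference at day 4 and AKF against knockout.

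Equal sums moved the median of all genes at day 6 to -0.51 against WT Lgr5-high and -0.33 against WT Lgr5-low, where the median of the 10 was 0.42 and 0.94, and to 0.17 in AKFP against knockout organoids, where it was 0.33. Of all genes called, the share higher was then 29.1% (45.9% in the main analysis) and 38.1% (54.2%) at day 6, 69.0% (49.9%) in AKFP against knockout, 68.3% (50.2%) against AKF, and 41.6% (59.1%) and 41.1% (58.0%) in knockout and AKF against WT organoids. Median-of-ratios scaling gave 57.1% at day 6 against WT Lgr5-high and 57.4% (69.1%) at day 4 in Lgr5-high cells, and for day 6 against day 4 Lgr5-high the share was 71.7% at equal sums and 73.7% with median-of-ratios scaling (61.6%). Same-numbered libraries deviated together with r of 0.02 to 0.52 in tissue and -0.04 to 0.09 in organoids over 2 numbers. In tissue, r was 0.52 for day 4 Lgr5-high with day 6, 0.44 for the WT gates and 0.34 for the day 4 gates. Whether same-numbered tissue libraries share an animal or a sort is not stated, and the main fit used no pairing. With a replicate block, 6 members were called at day 6 against WT Lgr5-high and 8 against WT Lgr5-low, and the call lost was that of *Atf5* in organoids. Depth limits *Trib3*, with an estimated 7 fragments in its lowest library, and 2 libraries per group limit every test.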

Other observations

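Genes outside the 10 were ranked by likeness to them, as Pearson r between a gene and the mean of the members' centred log2 values, given as a description over libraries that fall into groups. Over the 12 tissue libraries the closest were *P3h4* (0.979), *Fam110a* (0.978), *Ptp4a3* (0.977), *Mfsd5* (0.969) and *Cmas* (0.967). Over the 8 organoid libraries they were *Vrk2* (0.991), *Ces1c* (0.984), *Rcn2* (0.983), *Slc39a6* (0.983) and *Krcc1* (0.981). Some members opposed each other there, with r of -0.89 for *Ddit3* with *Asns* and -0.88 for *Atf5* with *Psat1*. Others moved together, such as *Psat1* with *Shmt2* (0.97), so likeness to the mean is not likeness to each member. *Vrk2* stood at 1.71 to 2.27 FPKM and *Ces1c* at 0.4 to 2 FPKM in organoids. *P3h4* stood at 0.665 to 4.16 FPKM in tissue and *Cmas*, an enzyme of sialic acid activation, at 28.2 to 53.8 FPKM.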
